A study of Mus musculus with 6 samples.

Results

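A set of 10 genes of GDNF, FGF and ERK signalling was followed in whole testes of mice: the ligand genes Gdnf and Fgf2, the receptor gene Fgfr1, the adaptor genes Shc1 and Shc4, the feedback inhibitor genes Spry1, Spry2, Spry4 and Dusp6, and the transcription factor gene Etv4. They were picked by symbol, through the RefSeq accession of each row of the deposited table, and all 10 were found, each with 1 row, among 17277 named genes on 25631 rows. The study set 3 arrays of testes in which Dmrt1 was targeted conditionally (Dmrt1 KO, Cre-positive) against 3 arrays of control testes (Cre-negative), all from males at postnatal day 9 and all in a line that the labels call NGN-cre. The product of Dmrt1 is a DM-domain transcription factor, made in germ cells and Sertoli cells. The labels give neither the strain, nor the promoter behind the Cre, nor whether the controls carry a conditional Dmrt1 allele, and since every Dmrt1 KO sample is Cre-positive, effects of Cre and of losing Dmrt1 cannot be told apart. Separate animals are not stated either, and p-values then measure only how far these samples scatter, which may be technical.

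GDNF is secreted by Sertoli cells and peritubular myoid cells of the testis and acts on spermatogonial stem cells through the receptor RET and the co-receptor GFRA1. FGF2 acts beside it through FGF receptors, of which FGFR1 is one. RET and FGFR1 are tyrosine kinases that recruit adaptors such as the SHC and FRS2 proteins, which pass the signal to RAS, RAF, MEK and ERK. Active ERK switches on the genes of its own inhibitors, among them the Sprouty proteins, which act between receptor and RAF, and DUSP6, a phosphatase that removes phosphate from ERK, and it also raises ETS factors of the ETV4 and ETV5 kind.

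Levels are log2 of the deposited fluorescence intensity, 1 value per accession and array, and differences are Dmrt1 KO minus control on that scale, with limma's moderated standard error (SE). The targeted gene itself read 11.98, 12.08 and 12.27 for Dmrt1 KO against 13.59, 13.49 and 13.21 for controls, a log2 fold change for Dmrt1 of -1.32 ± 0.20 (SE, 3 arrays a group; adjusted p = 0.124 in limma, 0.0190 with the dimmest 50% of rows left out and 0.00314 with trend and robust settings). The sources used here do not say where its probes lie relative to the deleted part. Dmrt1 KO replicate 3 stood apart over all rows, with a Pearson r of 0.966 to 0.973 to the other arrays, which had 0.978 to 0.988 among themselves. As a guide to background, 1064 olfactory receptor rows were used, whose 95th percentile was a log2 intensity of 7.19. Fgf2 lay close to it, above it on 5 of 6 arrays, and the remaining 9 genes lay above it on all 6. Of 64 measured marker genes of testis and neighbouring cell types, 2 had both group means under the guide.

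None of the 10 genes reached the threshold of 0.05 on limma's adjusted p, which 0.0312% of all rows reached (0 of 10, with 3 of 10 under 0.05 before adjustment). Shc4 came nearest: it was 3.12-fold lower in the Dmrt1 KO arrays, with an adjusted p of 0.0989. Spry4, Spry1 and Fgfr1 were each slightly higher on every Dmrt1 KO array than on any control array. The groups thus did not overlap for 3 genes in the higher direction, where 6.80% of all rows did the same, and for 1 gene in the lower direction, against 8.54% of all rows. At an unadjusted limma p of 0.05 the counts were 2 higher, Spry1 and Spry4, against 4.41% of all rows, and 1 lower, Shc4, against 5.10%. The median log2 fold change of the 10 genes was 0.16, and that of all rows was -0.02. Shc4 was already known from earlier work on these arrays to have one of the smallest p-values when the genes were chosen, so these counts do not stand as independent evidence. With 3 arrays a group an exact permutation test cannot give a two-sided p below 0.1.

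**Figure D1:**
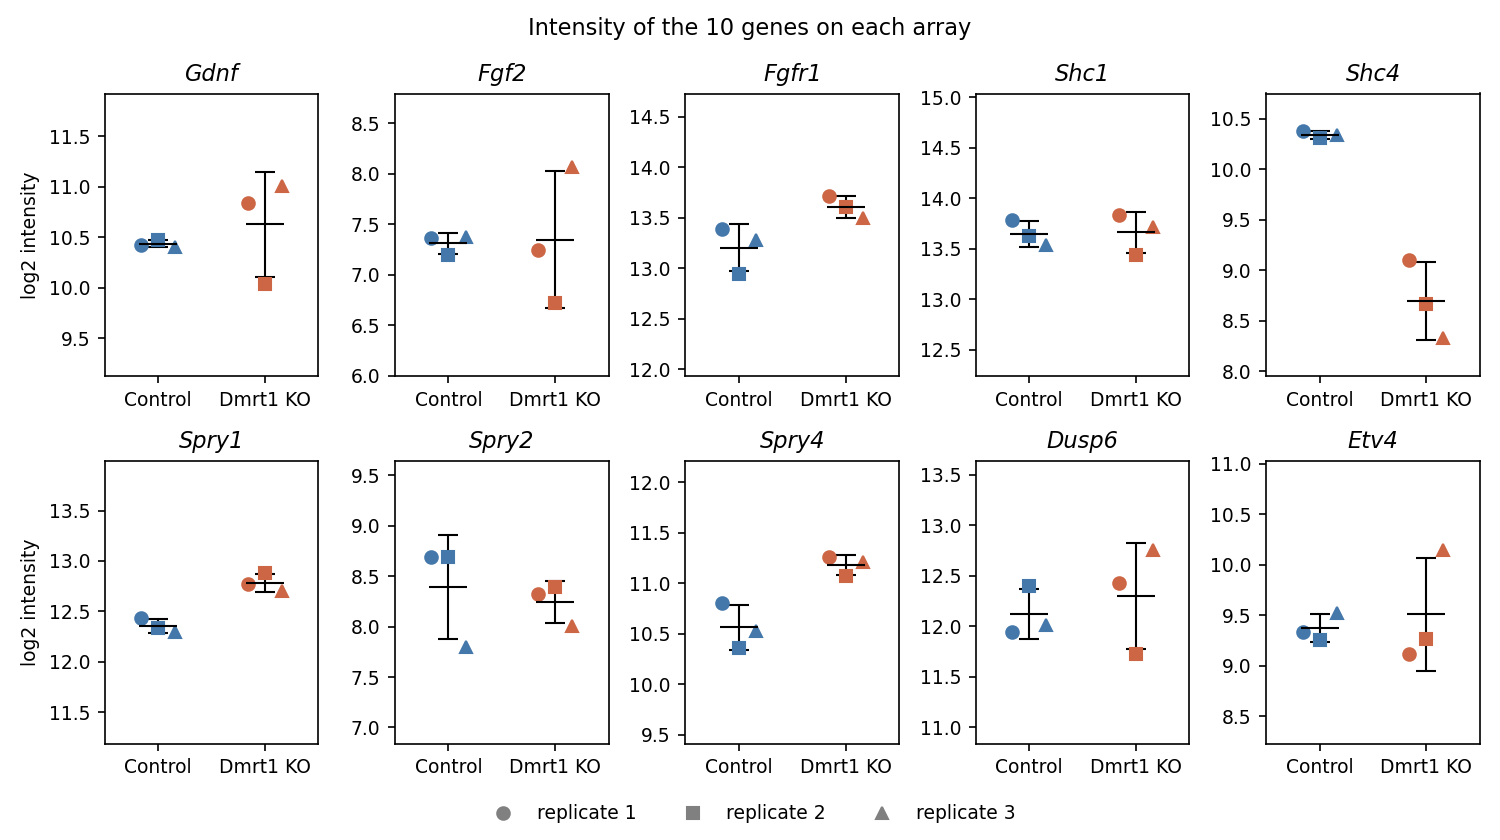
Log2 intensity (vertical axis) of each of the 10 genes on the 3 control arrays (blue) and the 3 Dmrt1 KO arrays (orange). Symbols mark the replicate, horizontal bars the group mean and error bars the SD, and every panel spans the same height. Shc4 lies between 8.33 and 9.10 on the Dmrt1 KO arrays and between 10.31 and 10.38 in the controls. The SD is larger on the Dmrt1 KO arrays than in the controls for 7 of the 10 genes, Gdnf, Fgf2, Dusp6 and Etv4 among them, and for 59.4% of all rows.

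The upstream sequences of Shc4 and Spry1 are shown because these genes are among the 4 whose arrays did not overlap between the groups and have a promoter window in the RefSeq table of build GRCm38.p6. Each run is the 250 bases before the annotated start, 5′ to 3′ on the strand of the gene, at chr2:125724149-125724398 on the minus strand for Shc4 and at chr3:37639697-37639946 on the plus strand for Spry1. Capitals mark the motif TGANTCA, where N is any base. It takes in the form bound by AP-1, the FOS and JUN dimer that acts downstream of ERK, but is wider than that form.
Shc4: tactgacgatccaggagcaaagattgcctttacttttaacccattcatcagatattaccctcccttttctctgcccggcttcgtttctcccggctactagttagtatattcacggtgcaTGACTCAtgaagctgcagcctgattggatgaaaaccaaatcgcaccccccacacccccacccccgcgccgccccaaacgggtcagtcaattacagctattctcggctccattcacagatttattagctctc
Spry1: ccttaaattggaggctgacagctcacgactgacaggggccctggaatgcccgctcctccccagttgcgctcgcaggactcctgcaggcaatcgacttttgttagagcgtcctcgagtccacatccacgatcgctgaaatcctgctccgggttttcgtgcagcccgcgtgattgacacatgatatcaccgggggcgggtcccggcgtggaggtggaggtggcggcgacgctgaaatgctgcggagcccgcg

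The motif TGANTCA begins at -131 from the Shc4 start and is not in the Spry1 window. It was added to the search after the Shc4 window had been read, and 6.75% of all 32851 windows of this length hold it on either strand; a match describes the letters and is not evidence of binding. Of the 9 windows of 7 of the genes (Shc4, Shc1, Fgf2, Spry1, Spry2, Dusp6 and Gdnf), 2 hold it, the other being a window of Shc1. The motif ACANTGT, the core of sites bound by DMRT1, and the motif CCGGAAG, bound by ETS factors, were in none of the 9, against 6.47% and 6.91% of all windows. The share of G and C was 62.4% in the Spry1 window, with 23 CG dinucleotides, and 50% in the Shc4 window, with 11, and the median over all windows was 52.4% with 6 CG dinucleotides.

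Among the adaptors, Shc4 encodes a member of the SHC family (also called ShcD) that binds activated receptor tyrosine kinases and is known from brain and from melanoma cells. For Shc4 the controls read 10.38, 10.31 and 10.34 and the Dmrt1 KO arrays 9.10, 8.66 and 8.33, each in the order of replicates 1, 2 and 3, as for all values that follow. The controls lay within 0.07 of each other, every Dmrt1 KO array was lower than every control array, and the gap between the groups was 1.21. The log2 fold change was -1.64 ± 0.24 (SE, n = 3 arrays a group), with a 95% interval of -2.19 to -1.09, a limma adjusted p of 0.0989 and the place 33 among 25631 rows ordered by p. Within the array number groups, formed from the leading digits of the array numbers in the titles and used as a possible batch, the Shc4 difference was -1.28 in group 1, with 1 array of each genotype, and -1.66 in group 2, with 2 controls and 1 Dmrt1 KO array; group 3 holds Dmrt1 KO replicate 3 alone. With the 50% of rows of lowest mean left out the Shc4 adjusted p was 0.0112, and with the trend and robust settings of limma it was 0.0114, at the same fold change. In whole testis, fewer cells of a type that expresses a gene and less RNA per cell cannot be told apart.

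Shc1, the widely expressed founder of the same family, differed between the groups by less than its error. It read 13.79, 13.62 and 13.54 in control testes and 13.84, 13.44 and 13.72 in Dmrt1 KO testes, so the groups overlapped. The log2 fold change was 0.02 ± 0.20 (SE), with a 95% interval of -0.45 to 0.48. Shc3, the SHC gene known from neurons, was measured with both group means under the background guide (5.41 in the controls and 5.66 in the Dmrt1 KO arrays), and Shc2 was not analysed here.

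The 5 named genes whose pattern over the 6 arrays was most like that of Shc4 were Nepn, Cyp26a1, Rnf138rt1, H4c1 and Otx1. Likeness was the root mean square difference of gene-centred log2 values over the 6 arrays, which was 0.207 for Nepn, 0.225 for Cyp26a1, 0.234 for Rnf138rt1, 0.256 for H4c1 and 0.260 for Otx1, where the median over 17276 genes was 0.871 and a gene at the same level on all arrays would have 0.852. These genes were chosen for that likeness, so what they share with Shc4 over these arrays is a description. Cyp26a1 encodes an enzyme that degrades retinoic acid, and it read 8.29, 8.18 and 8.06 in control testes and 7.46, 6.94 and 6.42 in Dmrt1 KO testes. Otx1, a homeobox gene, read 8.55, 8.79 and 8.36 in control testes and 7.40, 7.13 and 6.07 in Dmrt1 KO testes. For Cyp26a1, Otx1 and H4c1, but not for Shc4, Dmrt1 KO replicates 2 and 3 lay under the background guide. The log2 fold change was -1.35 ± 0.23 (SE) for Rnf138rt1, -1.21 ± 0.26 for H4c1, a histone H4 gene, and -1.34 ± 0.24 for Nepn, with both group means under the guide. None of the 5 passed (limma adjusted p from 0.148 for Rnf138rt1 to 0.241 for Cyp26a1), though Rnf138rt1 did with the dim rows left out (0.0244) and with trend and robust settings (0.00722).

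Of the Sprouty genes, which encode inhibitors that receptor tyrosine kinase signalling induces, Spry4 and Spry1 were separated between the groups and Spry2 was not. Spry4 gave 10.80, 10.36 and 10.52 for controls against 11.26, 11.07 and 11.21 for Dmrt1 KO. All 3 Dmrt1 KO arrays exceeded all 3 controls, by at least 0.27. Spry4 was 1.53-fold higher, with a log2 fold change of 0.62 ± 0.20 (SE, 95% interval 0.15 to 1.09), with a limma adjusted p of 0.404 and an unadjusted limma p of 0.0160. Within array number groups 1 and 2 the Spry4 difference was 0.46 and 0.62.

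Spry1, which in mice restrains the response to GDNF in the developing kidney, stood at 12.44, 12.33 and 12.30 among controls and at 12.77, 12.88 and 12.71 among Dmrt1 KO arrays. These groups did not overlap either, with a gap of 0.27. Spry1 was 1.35-fold higher, or 0.43 ± 0.18 on the log2 scale (SE, 95% interval 0.0082 to 0.85; limma adjusted p = 0.52), and within array number groups 1 and 2 the difference was 0.33 and 0.56. Spry2 read 8.69, 8.69 and 7.79 in control testes and 8.33, 8.39 and 8.01 in Dmrt1 KO testes, with control replicate 3 the lowest of the 6 and the Dmrt1 KO arrays inside the control range. Its log2 fold change was -0.15 ± 0.29 (SE, 95% interval -0.81 to 0.52).

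Dusp6, the ERK phosphatase gene, gave 11.94, 12.40 and 12.01 for controls against 12.43, 11.72 and 12.75 for Dmrt1 KO. Dmrt1 KO replicate 2 was the lowest of all arrays and replicate 3 the highest. The log2 fold change was 0.18 ± 0.30 (SE, 95% interval -0.50 to 0.87), smaller than its error, and without Dmrt1 KO replicate 3 it was -0.04.

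Among the receptors, Fgfr1 stood at 13.39, 12.94 and 13.27 among controls and at 13.71, 13.60 and 13.50 among Dmrt1 KO arrays. The groups were separated by 0.11, less than the range of the controls, which was 0.45. Fgfr1 was 1.32-fold higher, or 0.40 ± 0.20 on the log2 scale (SE, 95% interval -0.071 to 0.88; limma adjusted p = 0.591), and the difference was 0.32 and 0.49 within array number groups 1 and 2. Fgfr3, a receptor of the same family, lay the other way (controls 11.96, 12.11 and 12.24, Dmrt1 KO 10.97, 11.59 and 10.88). The Fgfr3 groups did not overlap, with a log2 fold change of -0.96 ± 0.24 (SE), that is 1.94-fold lower (adjusted p = 0.287 in limma). The reported Fgfr2 row gave 0.09 ± 0.30 (SE), and its other row gave 0.41. Of 6 measured FGF receptor and co-receptor genes besides Fgfr1, 1 was higher without overlap, Klb, with both means under the background guide, and 2 were lower, Fgfr3 and Fgfrl1, which encodes a receptor without a kinase domain, where 6.80% of all rows were higher and 8.54% lower. The list median was 0.11.

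The GDNF receptors differed by less than their errors: the log2 fold change was 0.10 ± 0.24 (SE) for Gfra1 and -0.32 ± 0.35 for Ret. Ncam1, an adhesion molecule that can also bind GDNF, gave 0.61 ± 0.31. Of 10 measured genes of the GDNF family and its receptors 0 were higher and 1 lower without overlap, against 6.80% and 8.54% of all rows. The list median was -0.02. Gfra3, the co-receptor for the related ligand artemin, was lower on every Dmrt1 KO array than on any control, by only 0.02 at the nearest pair (8.66 in control replicate 2 and 8.64 in Dmrt1 KO replicate 2), with a log2 fold change of -0.57 ± 0.24 (SE, limma adjusted p = 0.513).

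**Figure D2:**
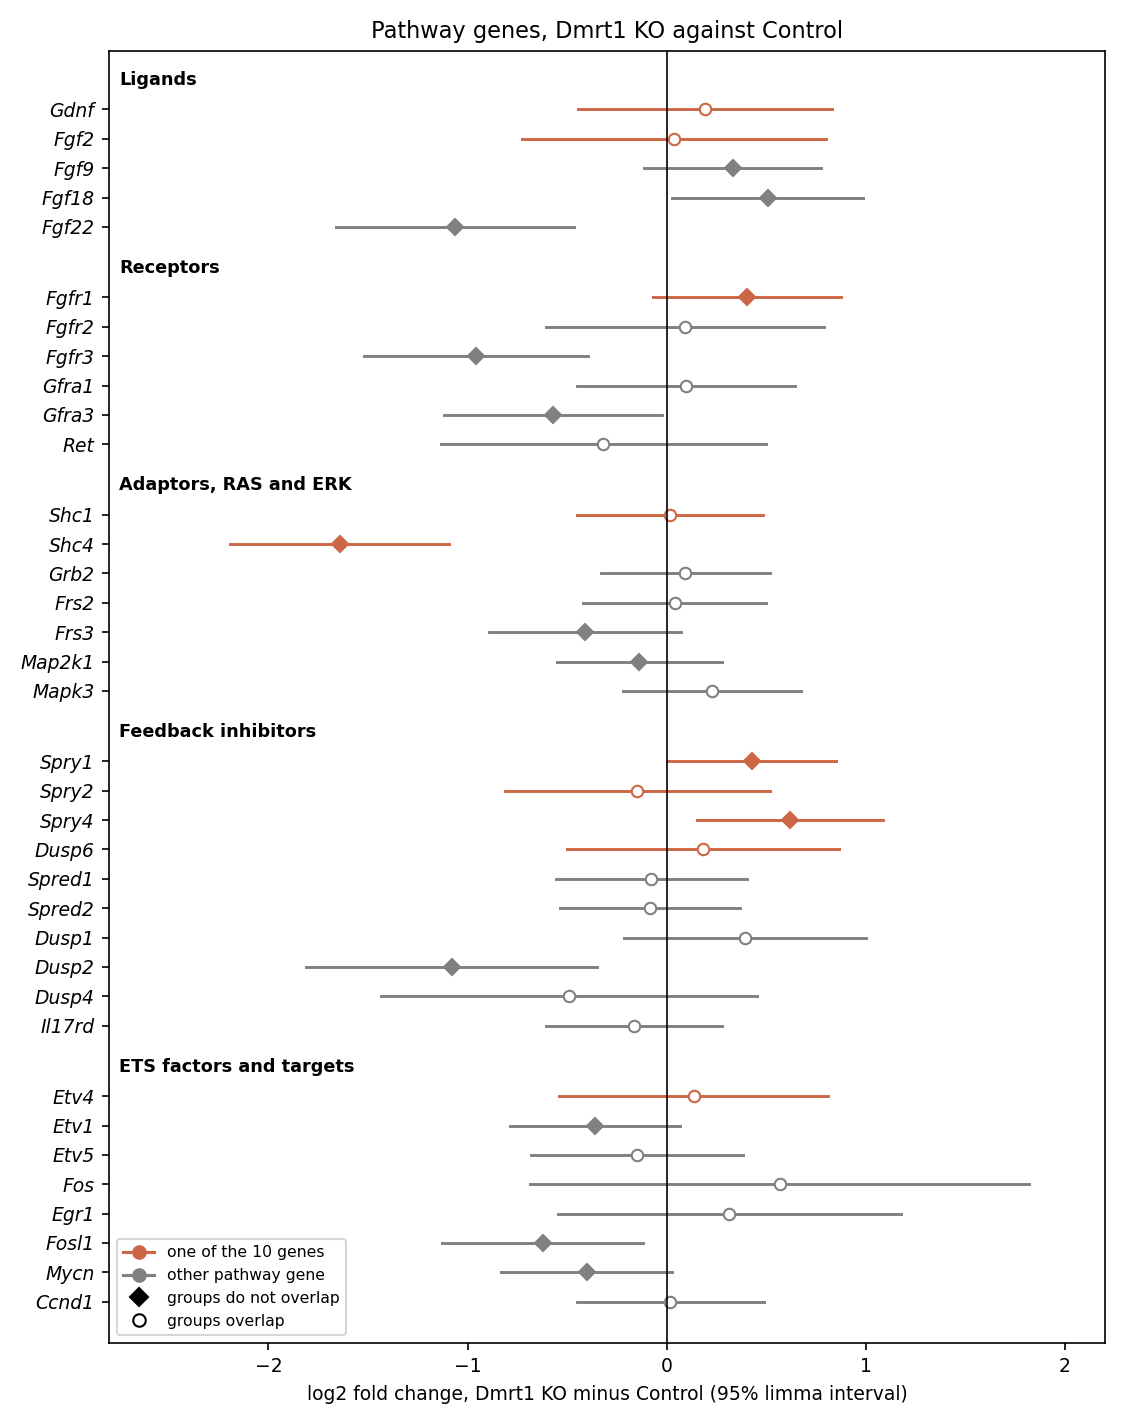
Log2 fold change of the 10 genes (orange) and of other pathway genes named here (grey), Dmrt1 KO minus control, with 95% limma intervals as lines. Diamonds mark genes whose 3 Dmrt1 KO arrays all lay on one side of the 3 controls, and open circles genes whose groups overlapped. Shc4 at -1.64 is farthest from 0, while Fgfr1 at 0.40 and Fgfr3 at -0.96 lie on opposite sides of it.

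The means of both ligand genes differed by less than their errors, and both scattered more widely on the Dmrt1 KO arrays than on the control arrays. By SD the same held for 7 of the 10 genes and for 59.4% of all rows. Gdnf read 10.43, 10.47 and 10.40 among the controls, a range of 0.07, and 10.84, 10.04 and 11.01 among Dmrt1 KO arrays. Replicates 1 and 3 lay above every control and replicate 2 below every control. The log2 fold change was 0.19 ± 0.28 (SE, 95% interval -0.44 to 0.83; limma adjusted p = 0.88), with a difference of 0.41 in array number group 1 and -0.40 in group 2. It was 0.0041 without Dmrt1 KO replicate 3, 0.089 without replicate 1 and 0.49 without replicate 2. Fgf2 read 7.37, 7.19 and 7.37 in control testes and 7.25, 6.72 and 8.07 in Dmrt1 KO testes, again with replicate 2 lowest and replicate 3 highest of all 6. Its log2 fold change was 0.04 ± 0.33 (SE, 95% interval -0.73 to 0.80), and -0.32 without Dmrt1 KO replicate 3. Etv4, whose product is an ETS factor induced by FGF signalling, gave 9.34, 9.26 and 9.52 for controls against 9.11, 9.27 and 10.14 for Dmrt1 KO. Only replicate 3 lay above the controls, and the log2 fold change of 0.13 ± 0.29 (SE, 95% interval -0.54 to 0.81) was -0.18 without it.

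For Gdnf, Fgf2 and Dusp6, Dmrt1 KO replicate 2 lay below all 3 controls and replicate 3 above all 3. That is 3 of the 10 genes, a pattern picked after the values were seen, and 5.12% of all rows showed it. Of 22 measured ETS factors and early targets of ERK the same was found for Fos, Junb and Egr1, which encode transcription factors induced within minutes of a stimulus. Fos stood at 10.21, 10.85 and 10.67 among controls and at 11.18, 9.91 and 12.33 among Dmrt1 KO arrays. Junb read 8.77, 8.69 and 8.33 in control testes and 10.59, 8.04 and 11.32 in Dmrt1 KO testes. The range within the Dmrt1 KO group was 2.42 for Fos and 3.29 for Junb on the log2 scale. Egr1 gave 10.49, 10.28 and 11.12 for controls against 11.16, 10.19 and 11.48 for Dmrt1 KO. The order replicate 2, 1, 3 from low to high was found in 9 of the 22 (Fos, Fosb, Jun, Junb, Egr1, Egr2, Ier2, Ier3 and Ets1) and in 3 of the 10 genes, against 15.5% of all rows. Of the 9, Ier2 was under the background guide on all 6 arrays, and the Dmrt1 KO range was only 0.08 for Ets1 and 0.14 for Jun. Replicate 3, the highest of the Dmrt1 KO arrays in the genes with this order, is the one that stood apart over all rows. Its part in the pattern was not tested.

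**Figure D3:**
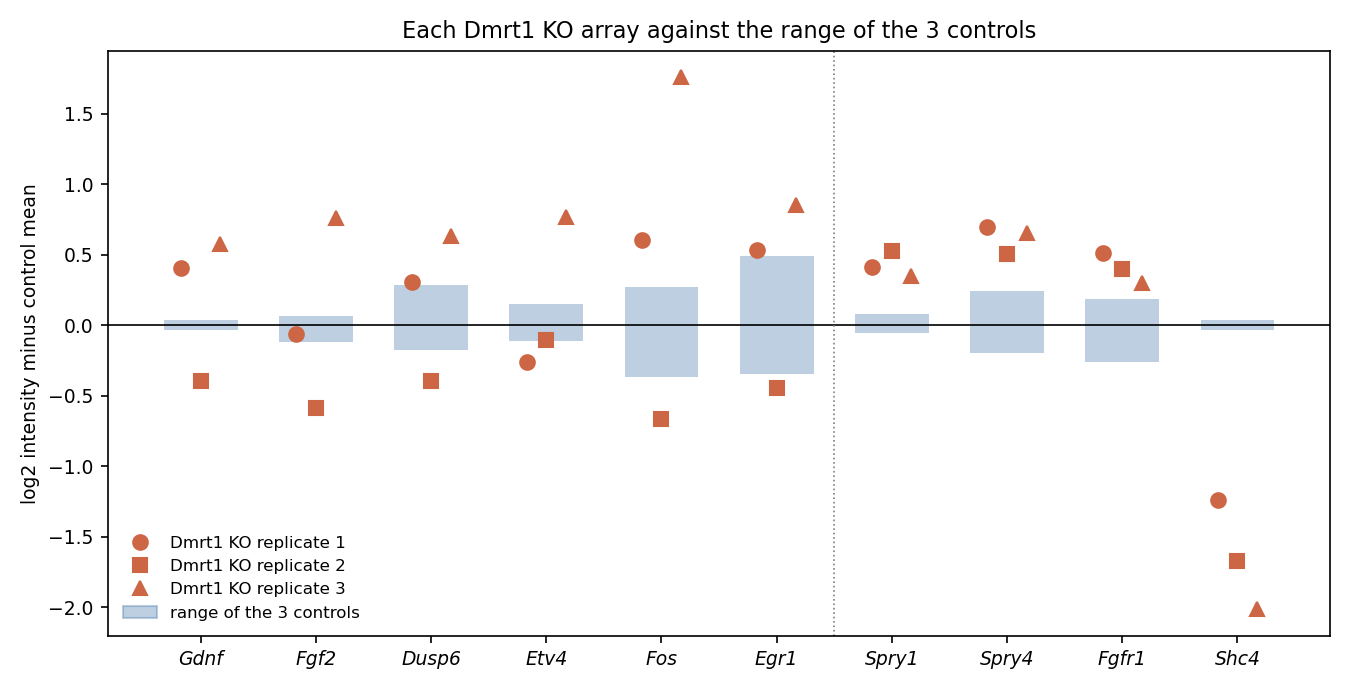
Log2 intensity of each Dmrt1 KO array minus the control mean (vertical axis), with blue boxes for the range of the 3 controls. Left of the dotted line, replicate 2 lies below and replicate 3 above the controls for Gdnf, Fgf2, Dusp6, Fos and Egr1, while for Etv4 only replicate 3 lies above them and replicate 1 lies below. Right of the line, all 3 arrays lie on one side of the controls for Spry1, Spry4, Fgfr1 and Shc4.

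The rest of the pathway was read from 7 lists with 101 genes, 95 of them measured and 21 of those with both group means under the background guide. Of the 95, 0 passed a limma adjusted p of 0.05, the smallest being 0.27, and at an unadjusted limma p of 0.05 2 were higher and 6 lower, where 4.41% and 5.10% of all rows were. The groups did not overlap for 5 in the higher and 12 in the lower direction, together 17.9% of the 95, where 15.3% of all rows did so. The median log2 fold change was 0.0070.

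Among 16 measured FGF ligands 2 were higher and 2 lower without overlap, against 6.80% and 8.54% of all rows. The list median was -0.0015, mostly over rows at background, since 11 of the 16 had both group means under the guide. Fgf18 was 1.42-fold higher (controls 10.82, 11.06 and 10.69, Dmrt1 KO 11.52, 11.16 and 11.41) and Fgf9, a ligand of Sertoli cells that supports testis formation, 1.26-fold higher. Both lower genes were at background: Fgf3 was under the guide on all 6 arrays (group means 5.83 and 5.40), and Fgf22 was above it on 1 of 6 only, control replicate 3. Fgf22 read 7.17, 7.16 and 7.73 among controls and 6.13, 6.07 and 6.66 among Dmrt1 KO arrays (-1.06 ± 0.26 on the log2 scale, SE; adjusted p = 0.27 in limma). Fgf8 had both group means under the guide (5.86 in the controls and 6.68 in the Dmrt1 KO arrays).

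Among 15 measured feedback inhibitors other than the 4 above, Dusp2 and Dusp10 were lower without overlap and none was higher. Over all rows 8.54% were lower and 6.80% higher in this way, and the list median was -0.08. Dusp2, a nuclear phosphatase of ERK known from immune cells, was 2.11-fold lower (controls 9.66, 9.54 and 9.84, Dmrt1 KO 8.89, 9.03 and 7.88; limma adjusted p = 0.352). The log2 fold change was 0.39 ± 0.26 (SE) for Dusp1, -0.49 ± 0.41 for Dusp4, -0.08 ± 0.21 for Spred1, -0.08 ± 0.20 for Spred2 and -0.16 ± 0.19 for Il17rd, which encodes the FGF inhibitor SEF. Dusp4 was above the background guide on 3 of 6 arrays, and its log2 fold change was -0.07 without Dmrt1 KO replicate 3 and -0.92 without replicate 1. Dusp5 was not analysed here.

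For the adaptors and kinases from receptor to ERK the median over 19 measured genes was 0.0070, and the log2 fold changes ran from -0.52 to 0.31. Frs3, an FGF receptor adaptor gene, and Map2k1, the MEK1 gene, were lower without overlap (-0.41 ± 0.21 and -0.14 ± 0.18, SE), and none was higher. Of all rows 8.54% were lower and 6.80% higher without overlap. Rps6ka1, which encodes the kinase RSK1 that ERK activates, gave -0.52 ± 0.27 with overlapping groups. Grb2 (0.09 ± 0.18), Frs2 (0.04 ± 0.20) and Mapk3 (0.23 ± 0.19) overlapped between the groups too.

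Of the 22 measured ETS factors and early targets, Etv1, Fosl1 and Mycn were lower and Ier3 higher without overlap. Over all rows 8.54% were lower and 6.80% higher in this way, and the list median was -0.01. Etv1, a close relative of Etv4, had a log2 fold change of -0.36 ± 0.19 (SE), Fosl1, a partner of JUN in AP-1, of -0.62 ± 0.22, and Mycn, a proliferation factor gene, of -0.40 ± 0.19. Etv5, the relative that GDNF induces in spermatogonial stem cells, gave -0.15 ± 0.23, and Ccnd1, the cyclin D1 gene, gave 0.02 ± 0.20. Of 7 genes that GDNF regulates in spermatogonia only Cxcr4, a chemokine receptor gene, was separated (controls 11.13, 10.86 and 11.10, Dmrt1 KO 11.81, 11.39 and 11.46; 1.44-fold higher, limma adjusted p = 0.483). Over all rows 15.3% were separated in either direction. Bcl6b (0.08 ± 0.22, SE), Id4 (-0.22 ± 0.25) and Nanos2 (0.30 ± 0.22) overlapped, the list median was 0.08, and the means of Lhx1 and Pou3f1 lay under the guide in both groups.

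Summed intensities of marker genes were set beside these values for the cell types that make or receive the signals. The 10 measured Sertoli cell markers summed to 134884 to 142030 in the controls and 120219 to 149707 in the Dmrt1 KO arrays, the 6 peritubular myoid markers to 15870 to 19020 and 11960 to 19857, and the 12 markers of undifferentiated spermatogonia to 30477 to 44956 and 43762 to 50412, overlapping in each case. The 6 germ cell markers also overlapped (99571 to 111488 and 84942 to 104465). So did the sum of the 7 measured Schwann cell and melanocyte markers (4147 to 5100 and 5062 to 6123), but 2 of them, named after their values were seen, were separated in opposite directions. Mitf, the melanocyte transcription factor gene, read 9.35, 9.02 and 9.37 among controls and 8.79, 8.48 and 8.18 among Dmrt1 KO arrays (-0.76 ± 0.23 on the log2 scale, SE; adjusted p = 0.361 in limma), and Mbp, a myelin protein gene, had means of 9.80 and 10.51 (0.71 ± 0.19; adjusted p = 0.314 in limma). The melanocyte markers Dct and Tyr did not follow Mitf. Dct overlapped between the groups, with means of 8.35 in the controls and 8.55 in the Dmrt1 KO arrays (0.20 ± 0.33). Tyr was under the background guide on all 6 arrays, with means of 4.51 and 4.38. Lists whose sums were separated were those of epididymis and rete, with 7 of 7 genes above 0 in log2 fold change (2920 to 4915 in the controls, 6200 to 11503 in the Dmrt1 KO arrays), endothelial cells, 4 of 5 above 0 (10381 to 13856, 14386 to 16196), Leydig cells, 6 of 6 above 0 (45979 to 72984, 73329 to 84312), and macrophages, 5 of 5 below 0 (7456 to 8495, 5683 to 6054). Such sums weigh bright genes most, and Cyp17a1 was the brightest Leydig cell gene on every array. Crisp1, of the epididymis and rete list, scattered widely within both groups (1.61 ± 1.83 on the log2 scale, SE). It read 9.70, 4.11 and 6.49 among controls and 9.73, 10.96 and 4.46 among Dmrt1 KO arrays. Taken singly, 3 of 7 epididymis and rete genes, 1 of 5 endothelial, 2 of 6 Leydig and 2 of 5 macrophage genes were separated. Genes were also separated in lists whose sums overlapped. These were 4 of 10 Sertoli cell genes (2 higher, 2 lower) and 3 of 12 of undifferentiated spermatogonia (2 higher, 1 lower). For peritubular myoid cells and germ cells it was 1 of 6 each, both lower. Over all rows 15.3% were separated in either direction. The part of these cell types in the values of Shc4, Spry1, Spry4 and Fgfr1 was not tested.

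**Figure D4:**
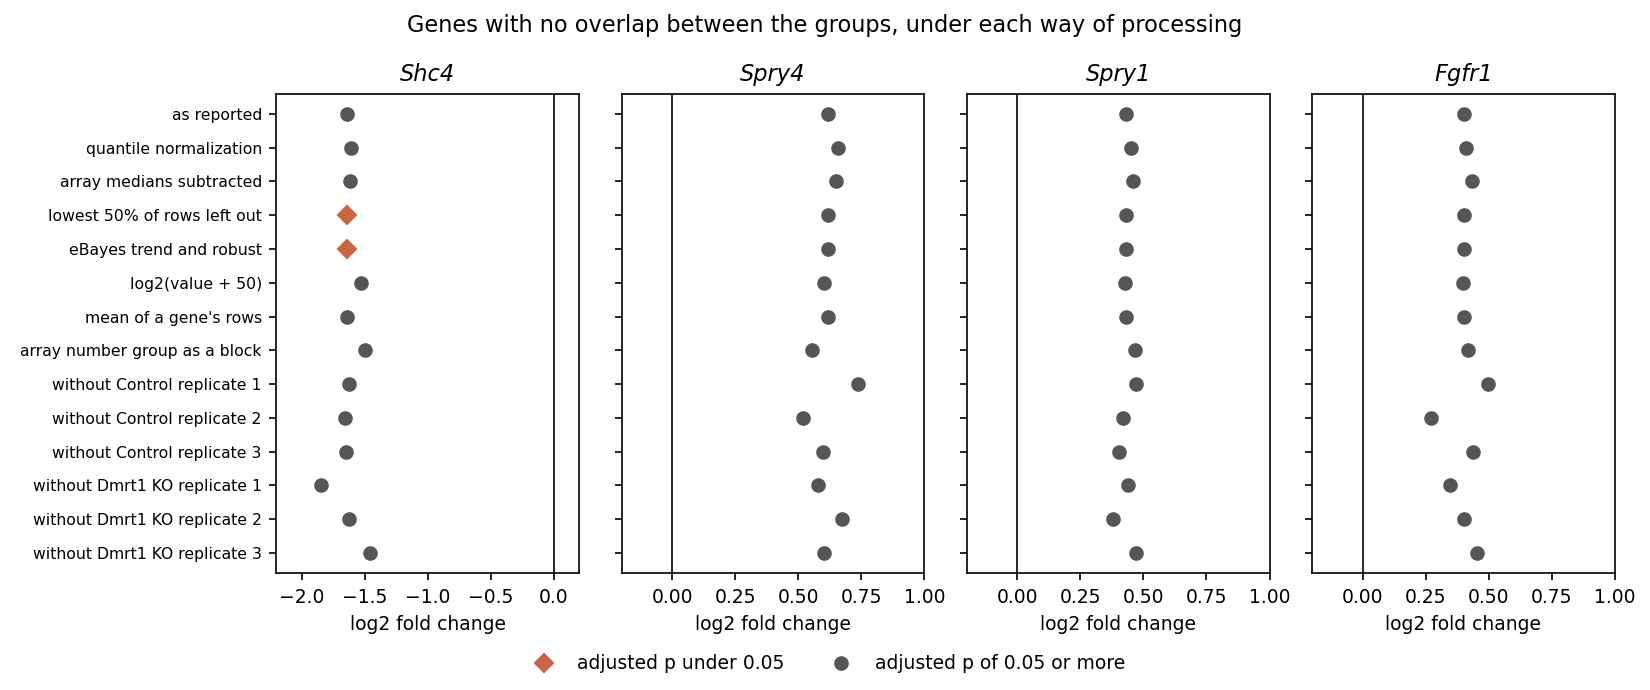
Log2 fold change (horizontal axes) of the 4 genes whose groups did not overlap, as reported and under 13 other ways of processing or with 1 array left out. Orange diamonds mark a limma adjusted p under 0.05 and grey points one of 0.05 or more. Shc4 stays between -1.84 and -1.46 and passes with dim rows left out and with trend and robust settings, and Spry4, Spry1 and Fgfr1 stay above 0 throughout without passing.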

How the data were processed

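Testis RNA was measured on NimbleGen expression arrays in 1 colour (Cy3), 1 sample on each, per the labels' protocols. What the authors deposited is linear intensity (8.81 to 65190), although RMA, named per the submitters' processing notes, normally returns log2 values; log2 was therefore taken before any test. The sources used here give no version or settings of RMA, no probe annotation and no build. Median intensity per array ran from 498.1 to 543.8. Accessions were matched without version to RefSeq symbols of GRCm38.p6, which named 17780 of 25631 rows. For genes with several rows the row of highest mean stood for the gene.

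All rows went through lmFit and eBayes of limma (version 3.58.1 under R version 4.3.3), using all 6 arrays, no covariate and no filter, with 4 residual and 3.96 prior degrees of freedom. Benjamini-Hochberg adjustment ran over every row, and the threshold was an adjusted p of 0.05. Replicates were numbered in order of deposition and pair no samples. In 10 sets of simulated arrays, of 25631 rows each with 200 of them changed, limma recovered 3.80% of 2-fold and 76.8% of 4-fold changes, and the number of arrays limits the precision. The changed rows also held 8-fold and 16-fold changes. Each simulated row had the same variance on all arrays, with no batch and no array standing apart. The real arrays differ in this, so the shares recovered need not hold for them. The genes, lists and alternatives were chosen with earlier results of these data known. Named were the 10 genes, Dmrt1, a list of pathway genes set by role, the 2 genes of smallest p in each pathway list, and the 5 genes most like the member of smallest p. The 13 alternatives were quantile normalization, array medians subtracted, the dimmest 50% of rows left out, trend and robust settings, log2(value + 50), the mean of a gene's rows, blocking on the array number group, and leaving out each array in turn. Some pathway genes are not reported here. Figures were drawn with matplotlib version 3.10.9.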

Additional observations from a re-analysis of the deposited data

How the results depend on the processing

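The count of rows past an adjusted p of 0.05 (7 higher, 1 lower) depended on the processing. Leaving out the dimmest 50% of rows gave 35 higher and 17 lower, trend and robust settings gave 53 and 28, and blocking on the array number group gave 45 and 4; log2(value + 50) gave 11 higher, and quantile normalization 0 lower. With 1 array left out the count ran from 0 to 44 higher and 0 to 3 lower. It was highest without Dmrt1 KO replicate 3, and it was 0 in limma without any 1 of the controls or without Dmrt1 KO replicate 2, where 806 to 1055 higher rows and 816 to 1250 lower rows had an unadjusted p under 0.05. Of 128 comparisons of the 10 genes with their reported values under 13 alternatives, 112 kept direction and side of the threshold, 14 turned in direction and 2, both of Shc4, passed where the reported fit did not; Fgf2 and Spry2 were among the dim rows left out. Shc4, Spry1, Spry4 and Fgfr1 turned under none of the 13. With 1 array left out the log2 fold change ran from -1.84 to -1.46 for Shc4, 0.38 to 0.47 for Spry1, 0.52 to 0.74 for Spry4 and 0.27 to 0.50 for Fgfr1, and the Shc4 adjusted p ran from 0.0112 to 0.50 over the alternatives.

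Blocking on the array number group takes away the weight of Dmrt1 KO replicate 3, and under it the log2 fold change turned for Gdnf (-0.052), Fgf2 (-0.37), Shc1 (-0.058), Dusp6 (-0.070), Etv4 (-0.17), Gfra1 (-0.060), Fos (-0.067), Egr1 (-0.0059), Lhx1 (0.053) and Pou3f1 (-0.14). With 1 array left out it ran from -0.32 to 0.35 for Fgf2, -0.068 to 0.13 for Shc1, -0.45 to 0.0010 for Spry2, -0.044 to 0.47 for Dusp6, -0.18 to 0.33 for Etv4, -0.085 to 0.24 for Gfra1, -0.54 to 0.015 for Ret, -0.11 to 0.36 for Fgfr2, -0.20 to 0.049 for Spred1, -0.14 to 0.021 for Spred2, -0.060 to 0.11 for Frs2, -0.28 to 0.0076 for Etv5, -0.029 to 1.18 for Fos, -0.080 to 0.12 for Ccnd1, -0.077 to 0.22 for Bcl6b, -0.29 to 0.17 for Lhx1 and -0.18 to 0.32 for Pou3f1. None of these genes passed the reported test, and the cause was not tested. Of 91 list medians under the alternatives 84 moved by less than the SD of the median deviation over the Dmrt1 KO arrays and 7 by more. With dim rows left out the median was 0.42 over the 2 FGF ligands kept, 0.13 over 4 genes of the GDNF family and its receptors and -0.24 over 3 FGF receptor genes. The feedback inhibitor median was 0.02 without Dmrt1 KO replicate 2. No paired analysis was possible because the labels give no replicate numbers shared between the groups.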
